A study of Mus musculus with 6 samples.

Results

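The genes described here make, lengthen and desaturate fatty acids. They were chosen by name as a list of 10 genes, namely Acly, Acaca, Fasn, Elovl5, Elovl6, Scd1, Scd2, Fads1, Fads2 and Acsl3. Of these, 9 were found by symbol among the 15601 genes of the count table. Fads2 was absent from it by symbol, so its level could not be read, and of this gene the promoter alone was searched. RNA-seq libraries came from mouse liver lymphocytes, 3 from animals treated with oil (corn oil, per the column names) and 3 from animals treated with tamoxifen, a ligand of oestrogen receptors that also switches on inducible Cre recombinases. The study's subject is the nuclear receptor RORα (gene Rora) in type 1 innate lymphoid cells (ILC1s), and the comparison asks how ILC1s differ after tamoxifen. The protocol describes the lysis and amplification of single cells, and the sources used here do not state how many cells or animals stand behind a library, nor genotype, age, dose or time after treatment. Separate animals are not stated either, so the p-values speak of the spread between libraries alone, which could be technical.

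Fatty acid synthesis starts in the cytosol, where ATP citrate lyase (Acly) cleaves citrate to acetyl-CoA and acetyl-CoA carboxylase (Acaca) turns acetyl-CoA into malonyl-CoA. Fatty acid synthase (Fasn) builds palmitate from these units, elongases of the ER membrane (Elovl5, Elovl6) lengthen fatty acids, and desaturases (Scd1, Scd2, Fads1, Fads2) introduce double bonds. Acyl-CoA synthetases such as Acsl3 activate fatty acids for use in lipids. Most of these genes are classical targets of SREBP transcription factors, and in liver the pathway is best known from hepatocytes, where Scd1 is abundant.

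The libraries held between 5289803 and 6325899 counts. From counting error alone, 0 counts allow a level of up to 0.474 to 0.567 CPM (counts scaled to library size), which is 3 counts in a library. Transcripts of the ILC1 and NK lineage were abundant: the 8 group 1 ILC markers, among them Ncr1, Klrb1c, Tbx21 and Eomes, summed to 3469 to 3889 CPM in oil and 3427 to 4083 CPM in tamoxifen. Single markers differed in both directions. Klrb1c was higher without overlap, at 787 ± 67.1 CPM in oil and 944 ± 70.7 CPM in tamoxifen, Klrk1 stood at 849 ± 59.8 and 1047 ± 298 CPM, and Ncr1 at 1227 ± 127 and 1241 ± 91.1 CPM. Tbx21 stood at 262 ± 146 and 184 ± 76.6 CPM and Eomes at 121 ± 35.4 and 115 ± 28.1 CPM, like Klrk1 and Ncr1 with overlapping groups. Cxcr6 stood at 413, 201 and 478 CPM in oil and 126, 111 and 157 CPM in tamoxifen, and Itga1 at 33.2 ± 1.97 and 14.5 ± 4.60 CPM, both lower without overlap and neither past edgeR's test over all genes (DESeq2 called Cxcr6). Itga2, a marker of NK cells, stood at 19.6 ± 6.72 and 10.5 ± 3.49 CPM, also without overlap. In bulk libraries fewer cells of a type and less RNA per cell cannot be told apart, and the part of these markers in the values below was not tested. Hepatocyte RNA was scarce: Alb, the albumin gene, had 7 counts over all 6 libraries and Apoa1 had 9. The 6 hepatocyte markers with a row summed to 28.8 ± 8.17 CPM (SD, n = 3) in oil and 34.4 ± 5.97 CPM in tamoxifen (exact permutation test, two-sided, p = 0.5), most of it from Trf and Apoe. These differed in opposite directions, with Trf at 17.3 ± 4.14 and 25.6 ± 3.18 CPM without overlap and Apoe at 9.997 ± 6.02 and 4.76 ± 1.92 CPM with overlap. Rora itself stood at 24.2 ± 3.92 and 17.4 ± 3.60 CPM with overlapping groups, a log2 fold change of -0.48 (SE 0.28) that did not pass the test over all genes; these counts cover the whole gene and do not show the loss of single exons.

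The promoters of 5 members are shown because Acly, Fasn, Elovl5 and Elovl6 share their order of levels over the oil libraries, described further on, and because Acsl3 has the largest difference between the groups. Each line gives the 250 bases before the annotated start, from RefSeq on GRCm38.p6, 5′ to 3′ on the strand of the gene. Capitals mark the motifs searched on both strands: CCAAT (the NF-Y box), GGGCGG (a GC box) and CACGTG (an E-box). The 5 regions are chr11:100528001-100528250 (minus strand), chr11:120824548-120824797 (minus strand), chr9:77917115-77917364 (plus strand), chr3:129532136-129532385 (plus strand) and chr1:78657575-78657824 (plus strand).
Acly: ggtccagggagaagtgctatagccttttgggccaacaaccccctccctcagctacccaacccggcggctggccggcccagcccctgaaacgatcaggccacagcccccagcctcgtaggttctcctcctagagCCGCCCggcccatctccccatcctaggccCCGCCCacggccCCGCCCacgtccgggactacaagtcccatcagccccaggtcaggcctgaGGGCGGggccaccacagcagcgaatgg
Fasn: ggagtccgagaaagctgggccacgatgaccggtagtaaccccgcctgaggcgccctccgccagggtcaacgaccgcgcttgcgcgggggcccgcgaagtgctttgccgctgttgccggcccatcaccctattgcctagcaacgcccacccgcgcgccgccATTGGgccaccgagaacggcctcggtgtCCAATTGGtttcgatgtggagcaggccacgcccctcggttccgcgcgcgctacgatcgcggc
Elovl5: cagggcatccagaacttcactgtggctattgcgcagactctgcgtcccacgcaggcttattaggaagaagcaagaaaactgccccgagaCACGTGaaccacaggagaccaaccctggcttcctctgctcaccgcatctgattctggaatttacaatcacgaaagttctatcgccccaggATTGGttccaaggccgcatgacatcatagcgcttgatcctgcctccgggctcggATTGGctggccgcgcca
Elovl6: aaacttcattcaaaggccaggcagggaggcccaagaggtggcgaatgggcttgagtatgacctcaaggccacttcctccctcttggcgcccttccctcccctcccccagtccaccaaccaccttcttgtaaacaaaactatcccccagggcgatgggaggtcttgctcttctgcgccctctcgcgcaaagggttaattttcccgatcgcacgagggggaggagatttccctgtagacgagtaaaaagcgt
Acsl3: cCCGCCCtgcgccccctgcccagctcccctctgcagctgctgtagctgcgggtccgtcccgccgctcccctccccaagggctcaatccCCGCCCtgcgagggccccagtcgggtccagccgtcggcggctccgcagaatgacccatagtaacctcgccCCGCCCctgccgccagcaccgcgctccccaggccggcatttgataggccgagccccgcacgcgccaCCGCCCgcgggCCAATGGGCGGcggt
The sequences differed in which motif they held. The Acly window had 4 GC boxes and no CCAAT, and the Fasn window had 3 CCAAT boxes and no GC box, a pair of the CCAAT boxes overlapping on opposite strands. Elovl5 had 2 CCAAT boxes and 1 E-box, Elovl6 had 0 of these motifs, and Acsl3 had 5 GC boxes and 1 CCAAT box that abuts one of them. Of the 7 members with a promoter in the RefSeq table, 3 held CCAAT, 3 held GGGCGG and 1 held CACGTG, beside 33.8%, 32.7% and 6.02% of 32851 promoter windows of the same length. A sterol regulatory element was searched as TCACNCCAC and was found in 0 of the 7, beside 1.05% of all windows. The Acaca window among the 7 (chr11:84195188-84195437) lies inside the gene as the count table places it (84129672 to 84401651). For Acaca the region before that gene start was therefore not searched. These are matches of letters and do not show binding.

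No member passed the test of tamoxifen against oil. Of the 9 members with a row, 8 passed the filter on low counts and were tested, and 0 were called by the quasi-likelihood test of edgeR, Benjamini-Hochberg adjusted over all 10811 genes tested, where 1 gene in all was called (0.00925% of genes; adjusted p = 0.999 for each of the 8 members). DESeq2, which called 18 genes (0.166%), limma-voom and limma on FPKM called 0 members as well. At an unadjusted p under 0.05 there were 3 members, Acsl3, Scd2 and Fads1, all with lower estimates in tamoxifen, beside 3.52% of all genes in either direction, 1.82% lower and 1.70% higher. These 3 members, and 0 in the other direction, had groups that did not overlap, with all tamoxifen libraries under the lowest oil library, as for 4.35% of genes (4.52% higher, 8.87% either way). The same 3 estimates were at least 2-fold lower, as were 1.98% of genes. Of the 8 tested members, 7 had a lower estimate, as had 50.5% of genes, and the median log2 fold change of the 8 was -0.33 beside -0.0038 over all genes. The members were listed with earlier results of these data known, Scd2 among them, so these shares describe the list and are not independent evidence of its direction. Acsl3 also passed the filter on low counts through its oil libraries alone, so its place in these counts is not independent of the filter.

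**Figure D1:**
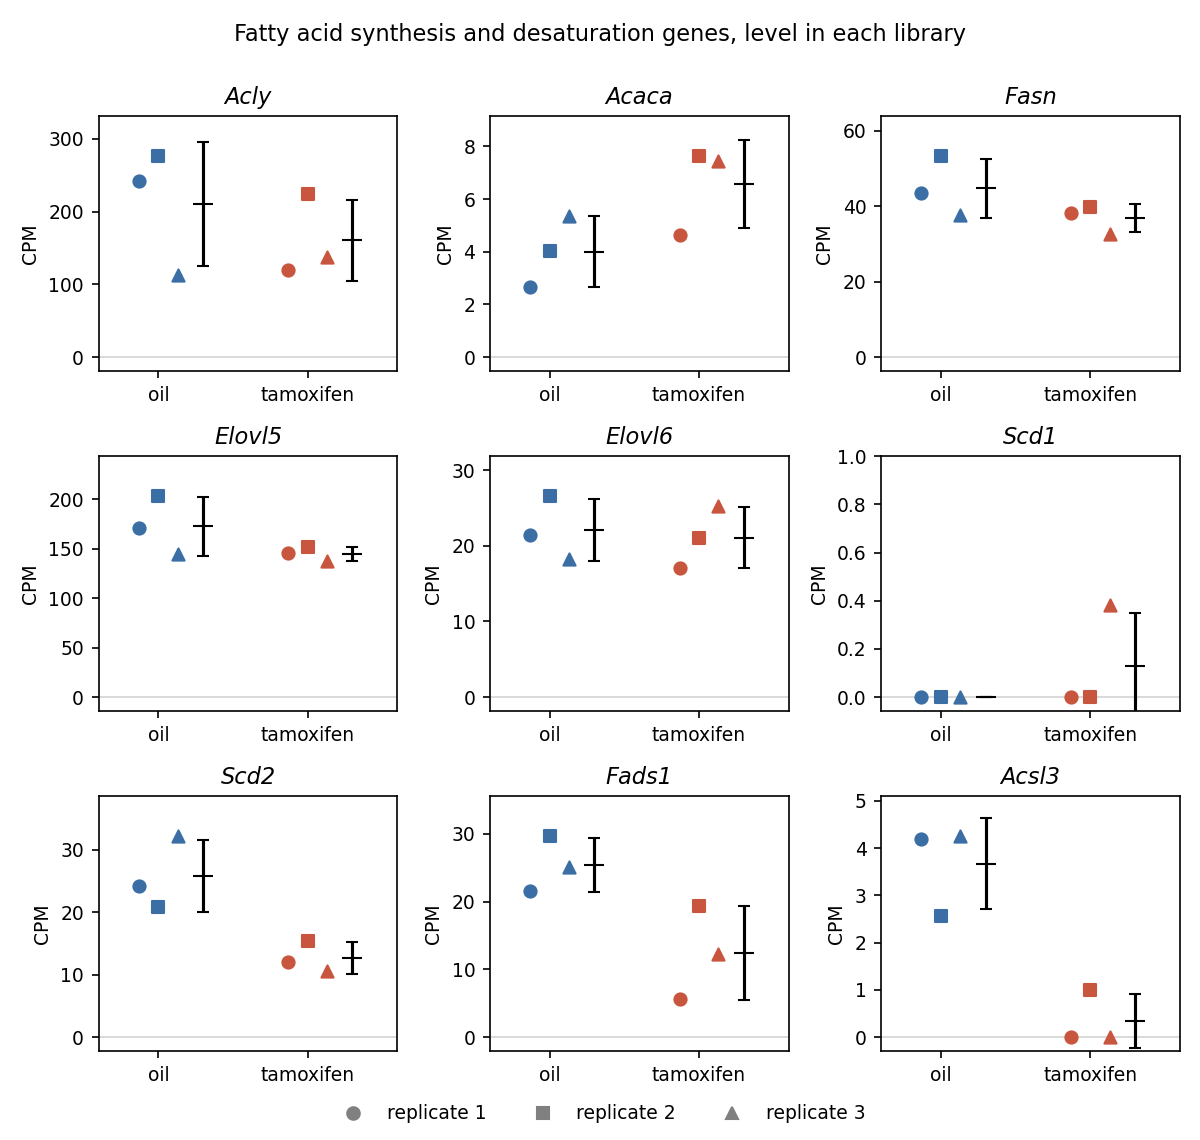
Level of each of the 9 members in each library, in CPM scaled with TMM factors (vertical axes, each from 0). Symbols give the replicate and bars the mean ± SD of 3 libraries; for Scd2, Fads1 and Acsl3 every tamoxifen library lies below every oil library, whereas the other members overlap.

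Acly, the enzyme that supplies cytosolic acetyl-CoA (chromosome 11, 100476353 to 100528000, minus strand, mm10), varied more within groups than between them. It stood at 242, 276 and 113 CPM in oil replicates 1, 2 and 3 and at 120, 224 and 138 CPM in tamoxifen replicates 1, 2 and 3. The low oil replicate 3 lay below every tamoxifen library, and tamoxifen replicate 2 came near the other oil libraries. The log2 fold change was -0.39 (SE 0.32; 95% interval -1.11 to 0.33). It was -0.15 without oil replicate 2, -0.71 without tamoxifen replicate 2 and -0.040 when the length trend of the libraries entered as a covariate.

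Acaca, which makes the malonyl-CoA for chain growth (chromosome 11, 84129672 to 84401651, plus strand), was the 1 tested member with a higher estimate in tamoxifen. It had 17, 22 and 29 counts in oil and 25, 46 and 39 in tamoxifen, which correspond to 2.64, 4.02 and 5.35 CPM against 4.63, 7.62 and 7.44 CPM. Tamoxifen replicate 1 lay within the range of the oil libraries, so the groups overlapped. The log2 fold change was 0.71 (SE 0.48; 95% interval -0.34 to 1.77), which spans 78.8% to 342% of the oil level at these low counts.

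Fasn, the multidomain enzyme that assembles palmitate (chromosome 11, 120805846 to 120824547, minus strand), stood at 43.5, 53.2 and 37.7 CPM in oil and 38.3, 39.8 and 32.6 CPM in tamoxifen. The groups overlapped at oil replicate 3. Its log2 fold change was -0.28 (SE 0.23), and the 95% interval ran from 57.6% to 118% of the oil level. It was -0.14 without oil replicate 2 and -0.40 without oil replicate 3.

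Neither elongase passed the test, and the groups of both overlapped. Elovl5, which lengthens polyunsaturated fatty acids (plus strand of chromosome 9, 77917364 to 77984519), had levels of 170, 203 and 144 CPM in oil and 145, 151 and 137 CPM in tamoxifen. The tamoxifen libraries lay close together (SD 7.01 CPM), and oil replicate 3 lay among them. Its log2 fold change was -0.25 (SE 0.18; 95% interval -0.65 to 0.14), and it was -0.12 without oil replicate 2 and -0.37 without oil replicate 3. Elovl6, which lengthens palmitate to stearate (plus strand of chromosome 3, 129532355 to 129638495), had levels of 21.5, 26.5 and 18.3 CPM in oil and 17.0, 21.04 and 25.2 CPM in tamoxifen. The Elovl6 groups covered nearly the same range, with a log2 fold change of -0.067 (SE 0.28; 95% interval -0.69 to 0.55). Its sign turned without oil replicate 2 (0.085), without tamoxifen replicate 1 (0.057) and with the length trend as a covariate (0.029).

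The stearoyl-CoA desaturases, which put the first double bond into saturated fatty acids, were represented by Scd2 and nearly absent as Scd1. Scd1 (chromosome 19, 44394451 to 44407709, minus strand) had 0 counts in 5 libraries and 2 counts in tamoxifen replicate 3, and it was too low to be tested. Scd2 (chromosome 19, 44293676 to 44306864, plus strand) had 156, 114 and 174 counts in oil and 65, 93 and 55 in tamoxifen. Scd2 thus gave 100% of the counts of this pair in 5 libraries, with lower bounds of the exact 95% binomial interval at 94.5% to 97.9%, and 96.5% (87.9% to 99.6%) in tamoxifen replicate 3. The mean share was -1.17 percentage points apart, tamoxifen minus oil (two-sided exact permutation test, p = 1.0), and these intervals cover counting error only. The sources used here do not say how reads shared by the Scd paralogs were counted. The near absence of Scd1 stands beside the 7 counts of Alb.

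Scd2 was lower in tamoxifen by the unadjusted p and by its ranges. It stood at 24.3, 20.9 and 32.1 CPM in oil and 12.04, 15.4 and 10.5 CPM in tamoxifen, so that the highest tamoxifen library lay below the lowest oil library. The means were 25.7 ± 5.78 and 12.6 ± 2.51 CPM, and tamoxifen stood at 49.3% of oil (95% interval 31.2% to 77.8%). The log2 fold change was -1.02 (SE 0.30; unadjusted p = 0.00589 by edgeR's quasi-likelihood test; exact permutation test, two-sided, p = 0.1, the smallest that 3 against 3 allows). With 1 library left out it was -1.19 to -0.84, and it was -1.05 with the length trend as a covariate. A miRNA gene, Mir5114, shares 1.12% of the exon bases of Scd2.

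Fads1, a front-end desaturase of polyunsaturated fatty acid synthesis (chromosome 19, 10182888 to 10196870, plus strand), showed a difference of similar size and a wider spread. It stood at 21.6, 29.6 and 25.1 CPM in oil and 5.56, 19.4 and 12.2 CPM in tamoxifen. The groups did not overlap, and tamoxifen replicate 2 came closest to the oil libraries. The log2 fold change was -1.03 (SE 0.40; unadjusted p = 0.0270 by edgeR's quasi-likelihood test), or 48.9% of oil with a 95% interval of 26.3% to 90.7%. Without tamoxifen replicate 1, the lowest library, it was -0.69, and without tamoxifen replicate 2 it was -1.52. Fads2, its neighbour in the same pathway, was absent from the count table by symbol, so its level could not be read.

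Acsl3, an acyl-CoA synthetase of the ER and lipid droplets (chromosome 1, 78657825 to 78707743, plus strand), had the largest difference among the members and a very low level. It had 27, 14 and 23 counts in oil and 0, 6 and 0 counts in tamoxifen. Every oil library thus held more counts than all tamoxifen libraries together. In CPM these were 4.198, 2.56 and 4.25 against 0, 0.994 and 0. After scaling to library size the ratio of oil to tamoxifen was 10.3, with an exact 95% binomial interval of 4.47 to 29.0 for counting error only. The fitted log2 fold change was -3.31 (SE 1.01; unadjusted p = 0.00759 by edgeR's quasi-likelihood test; 95% interval -5.55 to -1.08). Acsl3 passed the filter on low counts through its oil libraries alone, so the direction of this estimate is not independent of the filter. All tamoxifen counts came from replicate 2, and without it 0 counts remained. A floor of 3 counts over the other tamoxifen libraries (0.282 CPM) lay 13.01-fold below the oil mean of 3.67 CPM. That figure leaves out the spread of the oil libraries and the tamoxifen library that had counts, so it is not a lower bound on the difference. On log2(FPKM + 1) the difference was -0.57, a scale on which the pseudocount exceeds the level of the gene. The other acyl-CoA synthetases tested, Acsl1, Acsl4, Acsl5 and Acsbg1, did not pass the test, with estimates on the log2 scale of 0.033 (SE 0.55), -0.11 (SE 0.25), -0.053 (SE 0.19) and 0.24 (SE 0.34). Acsl5, at 352 CPM in oil and 339 CPM in tamoxifen, had the highest level in CPM of these 4. Exons of Utp14b on the same strand share 5.60% of the exon bases of Acsl3.

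**Figure D2:**
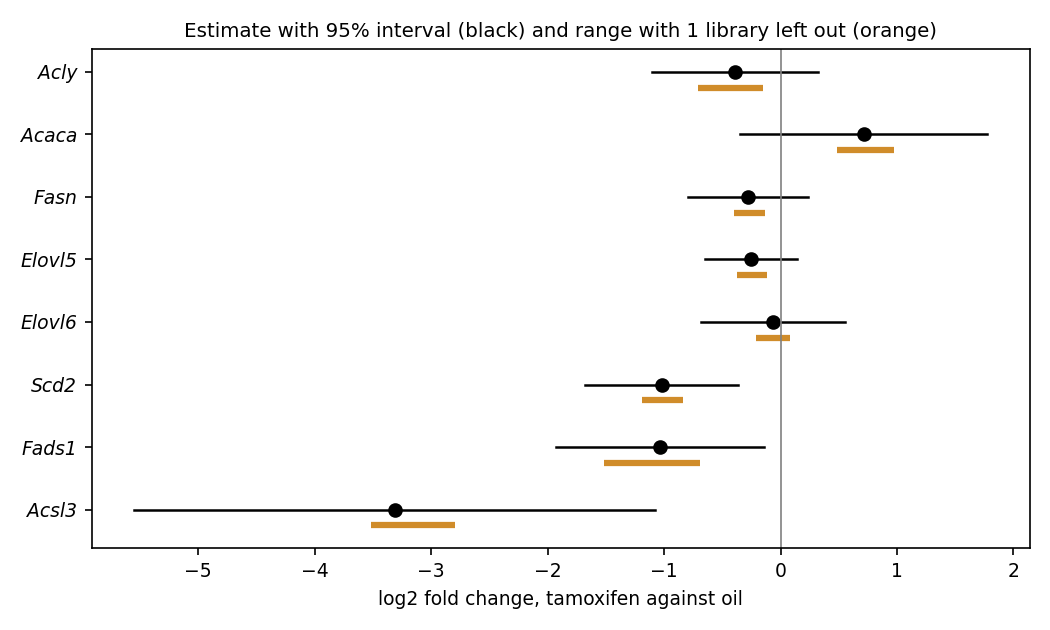
Log2 fold change of tamoxifen against oil for the 8 tested members (horizontal axis), with the 95% interval in black and, in orange, the range of the fits that each left out 1 library. For Acsl3 the fit without tamoxifen replicate 2 is not drawn, since no tamoxifen count remained; the intervals of Scd2, Fads1 and Acsl3 lie below 0 and the others span it.

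In the authors' deposited table Acsl3, Scd2 and Fads1 are marked DOWN, with p-values of 0.00200, 0.00394 and 0.0152 and q-values of 0.387, 0.626 and 1.0. No other member is marked there. A q-value under 0.05 is given there to 23 of 15601 genes (0.147%), and no member is among them. It marks 175 of 15601 genes DOWN (1.12%), and every gene it marks has a p-value under 0.05 and a fold change of at least 2, without a threshold on q.

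The members shared their order of libraries only in part. Within tamoxifen, replicate 2 was the highest library for 7 of the 8 tested members, all but Elovl6. Within oil, replicate 2 was highest and replicate 3 lowest for Acly, Fasn, Elovl5 and Elovl6. Scd2, Acaca and Acsl3 had their highest oil level in replicate 3 instead. How often all genes follow these orders was not counted, so the orders are not shown to be particular to the members. The libraries also differed in how levels depended on transcript length: the slope of log2 level on log2 length was 0.040, 0.11 and -0.084 in oil replicates 1, 2 and 3 and -0.057, 0.052 and -0.061 in tamoxifen replicates 1, 2 and 3. Oil replicate 2 and tamoxifen replicate 2, the highest libraries for Acly, Fasn, Elovl5 and Fads1, thus had the highest slope of their group. In oil the slope was highest in replicate 2 and lowest in replicate 3, as were the levels of Acly, Fasn, Elovl5 and Elovl6. The part of the slope in these orders was not tested. With that slope as a covariate the log2 fold changes were -0.17 for Fasn, -0.15 for Elovl5 and -0.94 for Fads1.

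Levels of the members are compared per length, in FPKM as deposited. Elovl5 was highest at 40.9 ± 7.41 FPKM (SD over all 6 libraries) and Acly second at 22.8 ± 9.30 FPKM. Elovl5 exceeded Acly in 6 of 6 libraries, although their ranges overlapped. Fads1 followed at 5.49 ± 2.60 FPKM, Scd2 at 3.51 ± 1.45, Fasn at 2.94 ± 0.582 and Elovl6 at 1.95 ± 0.373. Fads1 exceeded Scd2 in 5 of 6 libraries, and their ranges overlapped. The order of Scd2 and Fasn was not beyond their spread: Scd2 was the higher in 3 of 6 libraries. Scd2 stood at a mean of 4.70 FPKM against 3.24 for Fasn in oil, and at 2.32 against 2.64 in tamoxifen. Acsl3 (0.309 ± 0.300 FPKM) and Acaca (0.260 ± 0.0968 FPKM) did not differ beyond their spread over all libraries either, but their order turned between the groups. Acsl3 was above Acaca in every oil library, at 0.410 to 0.661 against 0.133 to 0.252 FPKM, and below it in every tamoxifen library, at 0 to 0.159 against 0.223 to 0.388 FPKM. Scd1 was last. The lengths behind the deposited FPKM exceed the GENCODE exon bases for some members, at 8190 against 5279 bases for Acly and 11053 against 6431 for Elovl6. For Fads1 the length is shorter, at 3456 against 4812 bases, which raises its FPKM. Counts per kilobase of GENCODE exon bases and library size put Fasn (3.74) before Scd2 (3.50) and left the other ranks in place. On that scale Fads1, at 3.95, stood close to both.

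**Figure D3:**
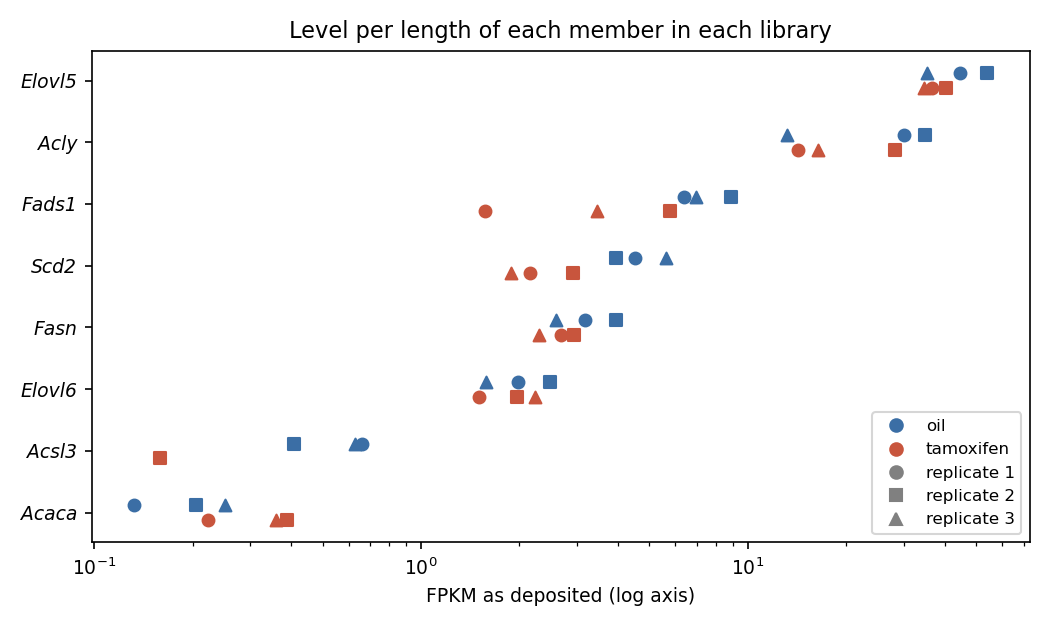
Deposited FPKM of each member in each library (log axis), members ordered by their mean over 6 libraries; Scd1 and the 2 tamoxifen libraries in which Acsl3 was at 0 are not drawn. Elovl5 and Acly lie at 13.2 FPKM or more in every library and the remaining members at 8.86 or less.

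The rest of the fatty acid synthesis pathway had estimates on both sides of 0. Of 30 further genes of synthesis, elongation, desaturation and activation, 22 were found in the table and 17 were tested: 0 passed, 0 had an unadjusted p under 0.05, 9 were lower and 8 higher, with a median log2 fold change of -0.053. The smallest p-values belonged to Mecr, the last enzyme of mitochondrial fatty acid synthesis (34.3 ± 7.44 and 45.9 ± 12.4 CPM; log2 fold change 0.42, SE 0.28), and Hsd17b12, the ketoreductase that works with the elongases (91.7 ± 7.75 and 105 ± 6.52 CPM; 0.19, SE 0.17). Slc25a1, the carrier that exports citrate for Acly, had 0.24 (SE 0.24), Acss2, which makes acetyl-CoA from acetate, -0.076 (SE 0.22), and Mid1ip1, an activator of acetyl-CoA carboxylase, 0.095 (SE 0.36). In none of the 17 did the groups fail to overlap.

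Genes that control the pathway were mostly lower in estimate. Of 11 tested genes of SREBP and ChREBP control, 0 passed over all genes and 10 had a lower estimate, beside 50.5% of all genes. At an unadjusted p under 0.05 there were 3, all lower, beside 1.82% of all genes in that direction. The list was chosen with earlier results of these data known, so these shares are not independent evidence of its direction. The median of the 11 was -0.27 on the log2 scale. Over the alternatives this median ran from -0.55 to -0.077, with 8 to 10 genes lower. Srebf1, whose product SREBP-1 drives fatty acid genes, stood at 90.8, 94.2 and 76.6 CPM in oil and 59.6, 74.1 and 53.3 CPM in tamoxifen, without overlap (log2 fold change -0.48, SE 0.21). Insig1, which retains the SREBP escort SCAP in the ER and is itself an SREBP target, stood at 32.6, 29.1 and 18.8 CPM in oil and 14.4, 11.6 and 11.5 CPM in tamoxifen (-1.10, SE 0.30). Srebf2, the sterol-directed paralog, stood at 71.0 ± 15.1 and 45.6 ± 15.1 CPM with overlapping groups (-0.64, SE 0.27). The 6 tested LXR receptors and targets were 3 lower and 3 higher (median 0.049), with Abcg1 at 0.24 (SE 0.29) and Mylip at -0.28 (SE 0.38). The 7 genes of NADPH supply, the reducing power of the pathway, were 5 lower and 2 higher (median -0.042), with Idh1 at -0.45 (SE 0.44) and Tkt at -0.20 (SE 0.27).

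By their medians the members stood between sterol synthesis and fatty acid oxidation, as did every other lipid list except uptake and binding. Of 21 sterol synthesis and uptake genes, 0 passed and 20 had a lower estimate, beside 50.5% of all genes, with a median log2 fold change of -0.63. The groups of 9 did not overlap, all lower, as for 4.35% of all genes. Among the sterol genes with the smallest p-values were Fdps, Sqle and Hmgcs1, and DESeq2 called Fdps and Sqle. Hmgcs1, the first enzyme committed to the mevalonate pathway, stood at 113, 123 and 96.6 CPM in oil and 53.3, 74.2 and 38.8 CPM in tamoxifen. Scd2 and Fads1, at 49.3% and 48.9% of oil, had differences like that of Hmgcs1 (log2 fold change -0.996, SE 0.25), and Acly, Fasn and Elovl5 stood at 76.3%, 82.4% and 84.0% of oil. Of 15 fatty acid oxidation genes, 0 passed and 14 had a higher estimate, with a median of 0.27, whereas 50.5% of all genes had a lower one. Of the 15, 5 did not overlap, all higher, as for 4.52% of all genes. Among them Acaa2, the thiolase that ends each cycle of oxidation, stood at 187, 179 and 212 CPM in oil and 295, 245 and 300 CPM in tamoxifen, and Etfdh, which passes the electrons on to ubiquinone, at 68.9 ± 7.56 and 106 ± 10.3 CPM. Cpt1a, the gate of mitochondrial fatty acid import, had an estimate of 1.12 (SE 0.28) and the carnitine carrier Slc25a20, which DESeq2 called, one of 1.08 (SE 0.25). Of 13 glycerolipid genes 8 were lower and 5 higher (median -0.026), a balance that turned under alternatives (4 to 9 lower; median -0.17 to 0.18), and Plin2, a lipid droplet coat protein gene, stood at 71.05, 64.2 and 72.0 CPM in oil and 109, 87.8 and 82.3 CPM in tamoxifen (0.43, SE 0.19). Of 8 uptake and binding genes 2 were tested, Fabp5 (1.28, SE 0.62) and Slc27a4 (0.80, SE 0.50), both higher in estimate. The differences between these lists were not tested. The lists were chosen with earlier results of these data known, so their shares are not independent evidence of a direction.

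**Figure D4:**
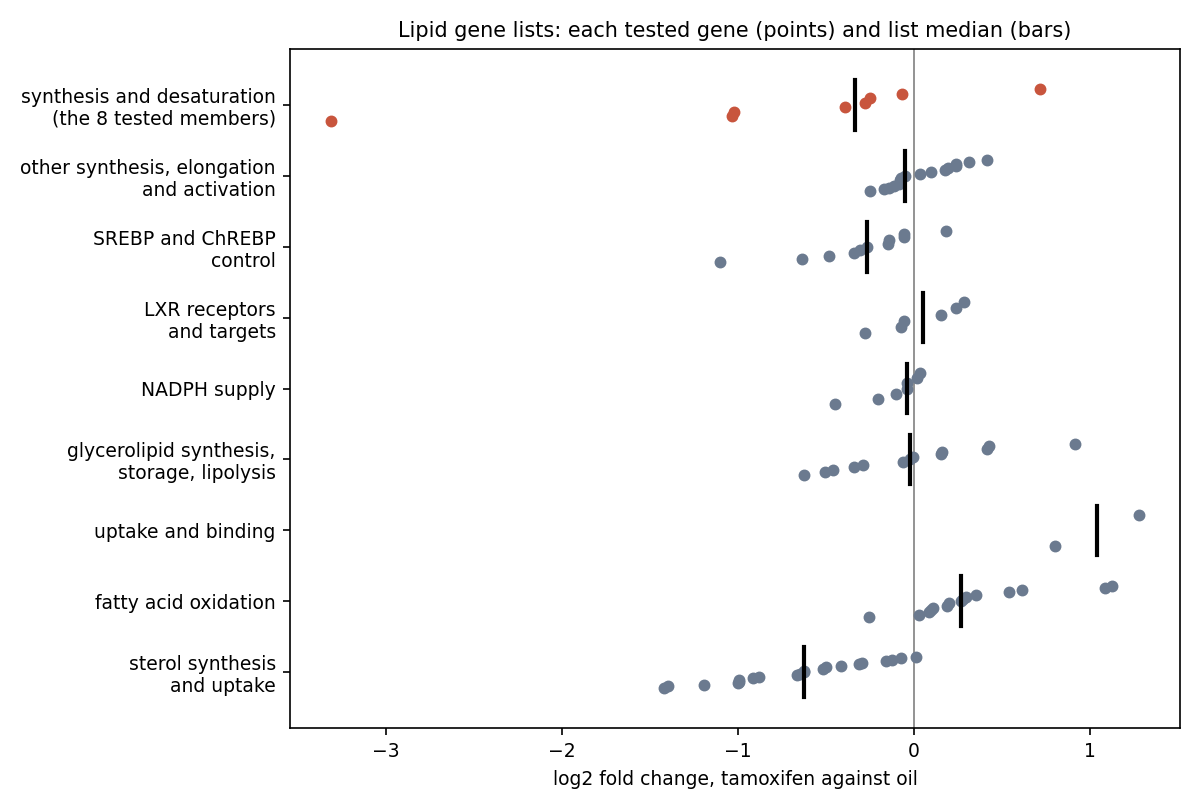
Log2 fold change of tamoxifen against oil (horizontal axis) for every tested gene of 9 lipid gene lists; points are genes and black bars list medians. The members spread from -3.31 (Acsl3) to 0.71 (Acaca) with a median of -0.33, between -0.63 for sterol synthesis and 0.27 for oxidation. The medians of all other lists except uptake and binding also lay in that range.

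Likeness to Scd2 was measured as the root mean square difference in log2 CPM over the 6 libraries, each gene centred on its own mean. The 3 nearest of 10810 genes were Rangrf (0.13), Dcbld2 (0.16) and Ms4a6c (0.19), at means of 1.84 to 4.29 CPM. The other members lay farther away, from 0.50 for Fasn and 0.52 for Fads1 to 1.05 for Acsl3. Hmgcs1 (0.30, rank 55) and Fdps (0.33, rank 79) were nearer to Scd2 than any other member. These distances describe 6 libraries and carry no test.

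Markers of other cells and of division were compared beside these values. The 12 proliferation genes summed to 4536 to 5414 CPM in oil and 4311 to 4985 CPM in tamoxifen (median log2 fold change -0.082). Of the 12, 8 had a lower and 4 a higher estimate, and the groups overlapped for each. Mki67 had the lowest estimate (-0.50, SE 0.21), at 292 ± 40.5 and 207 ± 52.3 CPM. Birc5 had the highest (0.14, SE 0.23), at 728 ± 237 and 804 ± 141 CPM. Kupffer cell markers (4 of 6 with a row) summed to 5.72 to 10.3 CPM in oil and 2.10 to 5.74 CPM in tamoxifen, T cell markers (5 of 6) to 161 to 246 and 180 to 313 CPM, B cell markers (2 of 5, nearly all Ighm) to 398 to 486 and 366 to 400 CPM, and endothelial markers (2 of 5) to 41.4 to 49.0 and 31.5 to 53.2 CPM. Stellate cell and neutrophil markers had 1 gene each with a row, at no more than 2.48 and 0.622 CPM in any library, and 0 of 5 adipocyte markers had one. The part of these markers in the values of the members was not tested.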

How the data were processed

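RNA was measured in 6 libraries, 3 oil and 3 tamoxifen, grouped by the sample titles. Per the labels' protocols, RNA was reverse transcribed in the lysate of single cells (SMARTer Ultra Low) and the cDNA amplified by PCR; no molecular identifiers are mentioned, so counts may not be independent molecules. The table deposited by the authors holds raw counts per gene and library, and FPKM values made by the authors; for all 9669 genes with at least 10 counts per library, both followed 1 length per gene within 0.1%. The deposited p-values and q-values are the authors' own, from edgeR by the name of the table. HISAT2, StringTie and mm10 stand in the submitters' processing notes without roles or versions, and no source used here gives the strand setting or the handling of shared reads. Counts were tested with edgeR 4.0.16 (R 4.3.3): TMM factors, filter by group, quasi-likelihood test of group, Benjamini-Hochberg adjusted p under 0.05 over 10811 genes. Standard errors come from the F statistic. Gene coordinates are those of the table (mm10); exon overlaps come from GENCODE M21. In simulated counts for this comparison (10811 genes, 200 changed 4-fold), 93% of changed genes were called. The changed genes were drawn only from genes above a mean count that Acaca and Acsl3 did not reach. Smaller differences, such as those of Scd2 and Fads1, were not simulated, so the 93% does not give the power for the members. Alternatives were other normalizations, filters and tools (DESeq2 1.42.0, limma 3.58.1 on voom weights and on log2 FPKM with pseudocounts of 1 and 0.1), the replicate number as a block, a length covariate, and leaving out each library. Same-numbered libraries did not deviate together throughout (correlations -0.071, 0.27 and 0.16), so the numbers were not taken as pairs. The members and lists were chosen with earlier results of these data known. All members are named; from other lists up to 4 genes with an unadjusted p under 0.05, or else the 2 with the smallest p, are named. Acsl1, Acsl4, Acsl5, Acsbg1, Slc25a1, Acss2, Mid1ip1, Apoa1, Ncr1, Klrb1c, Klrk1, Tbx21 and Eomes were added after their values were seen. Other markers are mostly given as sums, and likeness is given for Scd2 alone. Some genes that this rule names are not reported here.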

Additional observations from a re-analysis of the deposited data

How the results depend on the processing

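No member was called under any of the 17 alternative fits. Acly, Acaca, Fasn, Scd2, Elovl5, Fads1 and Acsl3 kept their direction in all 17. For Acsl3 the direction is not independent of the filter on low counts. The fit without tamoxifen replicate 2 held no tamoxifen counts of Acsl3, so its direction there was fixed. Elovl6 turned in 3: 0.085 without oil replicate 2, 0.057 without tamoxifen replicate 1 and 0.029 with the length trend as a covariate (-0.21 to 0.085 with 1 library left out). Among 33 other named genes 5 of 561 values reversed: Tkt (0.013 with the length covariate; -0.40 to 0.045 with 1 library left out), Idh1 (-0.73 to 0.095) and Cd79b (-0.39 to 0.18, above 0 without oil replicate 3 and, at 0.10, without tamoxifen replicate 1). Tkt turned without oil replicate 2 and Idh1 without oil replicate 3. Among the genes DESeq2 called were Slc25a20, Fdps, Sqle and Cxcr6, and Cxcr6 was also called with the length covariate and without oil replicate 2. The count of genes called, 1, was 18 by DESeq2, 6 with no filter, 11 with the length covariate, 0 with the replicate number as a block and 0 by limma on log2(FPKM + 1), log2(FPKM + 0.1) and log2(FPKM + 1) with no filter; it was 0 to 6 with 1 library left out. The cause of these changes was not tested. Same-numbered libraries did not all correlate best with each other. With the replicate block the log2 fold changes were -1.01 for Scd2, -1.17 for Fads1 and -3.63 for Acsl3, and 0 members were called. The median of the 8 members was -0.55 to -0.14 over the alternatives. The medians of 4 other lists turned sign: glycerolipid genes (-0.17 to 0.18), other fatty acid synthesis (-0.15 to 0.049), LXR (-0.032 to 0.19) and NADPH supply (-0.090 to 0.053). Depth limits Acaca, Acsl3 and Scd1, which had 178, 70 and 2 counts over all libraries. The rank of Scd2 and Fasn by GENCODE length was compared after seeing the data.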
